A study of Mus musculus with 2 samples.

Results

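The 8 genes considered here serve the synthesis of prostaglandins and leukotrienes, and their RNA was followed in single-cell libraries of cultured mouse bone marrow derived macrophages. They were taken by symbol from the gene list of the matrices, which names 31053 genes, and all 8 were found, each under a single identifier: Pla2g4a, Ptgs1, Ptgs2, Ptges, Alox5ap, Alox5, Lta4h and Ltc4s. Marrow cells of wild-type 129Sv mice were grown with macrophage colony-stimulating factor. On day 7 they received, for 18 h, either a truncated Tamm-Horsfall protein that does not polymerize (THP, also called uromodulin, a protein secreted by kidney tubule cells) at 1 µg/ml or its vehicle, 5% dextrose. Each of the 2 groups was a single droplet library, from which dead cells had been removed. No source used here says how many mice or dishes a library held, so THP treatment cannot be told apart from dish, animal or library preparation. No test between the libraries was possible and no p-value is given. Intervals are exact 95% intervals and cover counting error only.

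Arachidonic acid is cut from membrane lipids by cytosolic phospholipase A2, the product of Pla2g4a. The cyclooxygenases, encoded by Ptgs1 and Ptgs2, turn it into prostaglandin H2, from which microsomal prostaglandin E synthase (Ptges) makes prostaglandin E2. In the other branch 5-lipoxygenase (Alox5), which takes its substrate with the help of 5-lipoxygenase activating protein (Alox5ap), forms leukotriene A4. That unstable intermediate becomes leukotriene B4, an attractant of neutrophils, through Lta4h, or leukotriene C4 through Ltc4s. In macrophages Ptgs1 is usually expressed without a stimulus, while Ptgs2 and Ptges are known to be induced by inflammatory stimuli.

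A filter on cells left 12123 with THP and 10978 with vehicle, which held 224825484 and 207662132 unique molecular identifiers (UMIs, counted RNA molecules) and medians of 16113 and 17223 UMIs per cell. Of the kept cells, 39 and 41 carried one of the 42 barcodes that occurred in both libraries. Levels are UMIs of a gene per 1000000 UMIs of the cells summed (CPM), given below as levels with THP and with vehicle, and ratios are log2 of CPM + 1, THP over vehicle. Cells were sorted into classes by cuts on marker genes, none of which is among the 8 genes, and those that passed no cut are called ungated. The macrophage gate, set on Adgre1, the C1q genes, Mrc1, Mertk, Csf1r and Vsig4, took only 37.3% of THP cells and 25.4% of vehicle cells. The neutrophil gate took 13.7% and 16.2%, and the immature neutrophil gate 11.4% and 16.1%, so the labelled cell type was mixed with other marrow lineages in both libraries. Such a gate is a range of a score and not a cell type: 38.0% of THP cells and 30.6% of vehicle cells lay within 2-fold of the macrophage cut, and 26.1% and 37.5% within 2-fold of the monocyte cut. Per 10000 UMIs, cells of the macrophage gate had medians of 18.5 and 19.9 macrophage marker UMIs and 5.05 and 7.04 neutrophil marker UMIs, and cells of the neutrophil gate 1.82 and 0.654, with 1878 and 1606 of the neutrophil markers. The neutrophil gate also held cells rich in the granule genes Mpo, Elane and Prtn3: its summed level of the 6 myeloid progenitor markers was 13709 CPM with THP and 15281 CPM with vehicle, and 28.8% and 30.7% of its cells, with 52.0% and 58.2% of its UMIs, passed the progenitor cut as well, since the neutrophil cut was applied first. Levels without these cells are given below for Ptgs1, Ptgs2, Alox5ap, Alox5 and Lta4h. Leaving them out also changed the order of the classes in the THP library for Pla2g4a, Ptges and Ltc4s. Neutrophil-gated cells below the progenitor cut had 21.5, 6.34 and 1.24 CPM of these with THP, against 22.3, 4.75 and 0.82 CPM in the whole gate, with overlapping intervals. Clustering of the same cells, made without the 8 genes, put most macrophages of each library in different clusters. Cluster 9 held 4531 THP cells and 125 vehicle cells, and cluster 13 held 99 and 2255.

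The promoters of 3 of the genes are shown. They were picked by their ratios: the cyclooxygenase genes differed in opposite directions between the libraries, and Ptges differed in the direction of Ptgs2. Whether the promoter letters relate to these ratios was not tested. RefSeq entries matched 7 of the 8 genes by symbol. The windows are the 250 bases before the RefSeq start site in GRCm38.p6, 5′ to 3′ on the gene's strand, with matches to the searched motifs in capitals. The Ptgs1 window is chr2:36230176-36230425 (plus strand), that of Ptgs2 is chr1:150099781-150100030 (plus strand) and that of Ptges is chr2:30903298-30903547 (minus strand).
Ptgs1: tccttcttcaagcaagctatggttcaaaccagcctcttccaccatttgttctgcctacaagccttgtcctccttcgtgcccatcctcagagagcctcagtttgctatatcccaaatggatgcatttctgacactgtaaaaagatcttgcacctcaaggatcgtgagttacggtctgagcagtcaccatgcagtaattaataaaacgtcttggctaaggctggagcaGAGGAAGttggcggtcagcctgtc
Ptgs2: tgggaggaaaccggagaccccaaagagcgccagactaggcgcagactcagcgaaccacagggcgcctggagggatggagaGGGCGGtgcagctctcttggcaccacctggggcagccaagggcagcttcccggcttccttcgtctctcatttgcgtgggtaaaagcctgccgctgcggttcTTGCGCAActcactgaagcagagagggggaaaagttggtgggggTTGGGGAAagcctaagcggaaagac
Ptges: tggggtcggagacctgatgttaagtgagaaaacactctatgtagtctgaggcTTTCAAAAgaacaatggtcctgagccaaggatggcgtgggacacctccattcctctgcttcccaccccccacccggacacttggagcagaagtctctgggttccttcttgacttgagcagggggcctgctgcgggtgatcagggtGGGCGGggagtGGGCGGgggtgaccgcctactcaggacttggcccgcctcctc

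The motifs searched, on both strands and in a window that also took 50 bases after the start, were the C/EBP motif TTNCNNAA, the cyclic AMP response element half-site TGACG, the E-box CACGTG, the AP-1 motif TGANTCA, the GC box GGGCGG, the TATA motif TATAAA, the PU.1 motif GAGGAAG and an NF-kB consensus. In Ptgs2 the C/EBP motif matched 69 to 62 bases and 25 to 18 bases before the start, and the GC box 170 to 165 bases before it. A half-site 14 to 18 bases after the RefSeq start of Ptgs2 overlapped an E-box at 17 to 22, in the first 24 bases after that start (chr1:150100031-150100054). Whether transcription in these cells began at that base was not tested.
Ptgs2 after the start: agagtcaccactaCGTCACGTGga

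In Ptges the C/EBP motif matched 198 to 191 bases before the start, and GC boxes lay 53 to 48 and 42 to 37 bases before it. The Ptgs1 window held a PU.1 motif 24 to 18 bases before the start and no match to the C/EBP motif or the GC box. These motifs were not confined to genes that were higher with THP. Pla2g4a, lower with THP, had a C/EBP match 112 to 105 bases before one of its RefSeq starts. Alox5, also lower, had a GC box 35 to 30 bases before its start, while Lta4h, lower as well, had neither. Such matches are frequent by letter alone. Of 32851 promoter windows of this length, 40.7% held the C/EBP motif, 35.7% the GC box, 20.8% the half-site, 13.6% each the PU.1 and TATA motifs, 7.81% the AP-1 motif and 7.15% the E-box. The NF-kB consensus had no match in the windows of these 3 genes and one in 5.81% of all windows. The matches describe letters and not binding.

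Over all kept cells, 2 of the 8 genes were higher in the THP library (Ptgs2 and Ptges), 4 were lower with log2 ratios between -0.99 and -0.67 (Ptgs1, Alox5, Lta4h and Pla2g4a), and Alox5ap and Ltc4s were near equal. A size rule asked for a 2-fold ratio and a level of 10 CPM or more with THP or with vehicle. None of the 5 genes that reached 10 CPM passed it, where 0.911% of all 8012 genes at that level passed as higher and 2.97% as lower. At 1.5-fold 4 of the 5 passed, all as lower, where 17.3% of all genes passed as lower and 2.33% as higher. Ptgs2 and Ptges lay below 10 CPM in both libraries. With a minimum of 1 CPM all 8 genes were compared, and these were the 2 that passed, both as higher. At that minimum 0.86% of 11508 genes passed as higher and 2.83% as lower. The Poisson intervals of the libraries were apart for 7 of the 8 genes, all but Ltc4s, and for 82.9% of all genes at 1 CPM, so separate intervals are common at this depth.

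**Figure D1:**
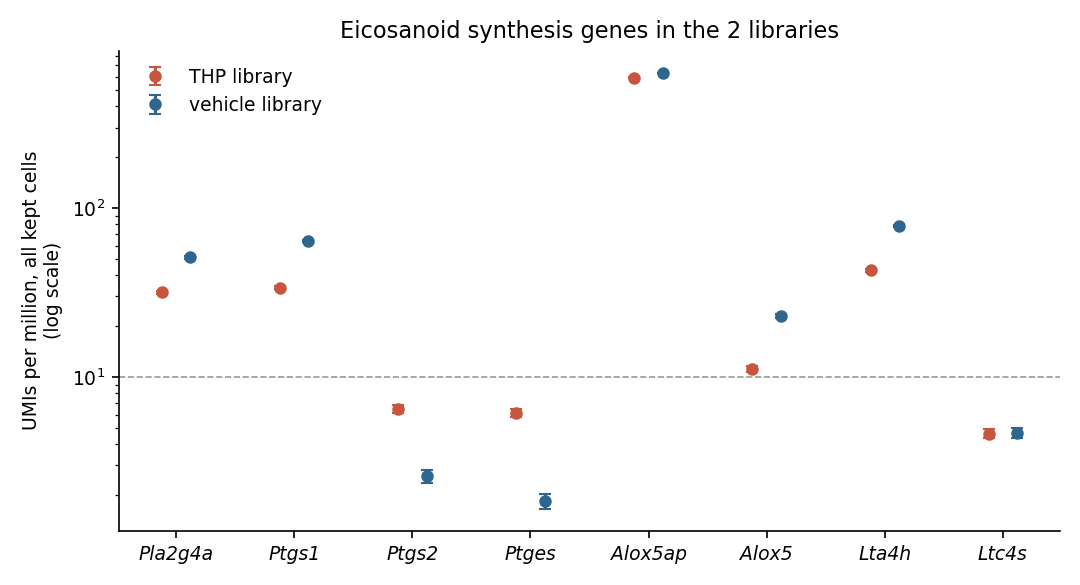
Level of each gene over all kept cells, in CPM on a log axis, with THP (red) and vehicle (blue), with exact Poisson 95% intervals; the dashed line marks 10 CPM. Ptgs2 and Ptges lie higher in the THP library (6.47 and 6.14 CPM against 2.58 and 1.84), and Pla2g4a, Ptgs1, Alox5 and Lta4h lie lower.

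Most genes were slightly lower in the THP library, with a median log2 ratio of -0.18 over the 8012 genes and a central 95% from -1.04 to 0.56. Scaling by trimmed means (TMM) moved that median by 0.28, to 0.10. The ratios of Ptgs1, Ptgs2, Ptges, Alox5, Lta4h and Pla2g4a kept their sign in all 12 alternatives computed for them. Alox5ap and Ltc4s did not. The alternatives with a pseudocount of 0.1 or 10 CPM could not change a sign, and leaving out the barcodes found in both libraries removed few cells.

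Pla2g4a (ENSMUSG00000056220, chromosome 1, 149829618 to 149961290, minus strand) encodes the phospholipase that releases arachidonic acid. It had 31.7 CPM (31.0 to 32.5) with THP and 51.2 CPM (50.2 to 52.2) with vehicle, which gives a log2 ratio of -0.67. Its level varied little among the large classes. Among the 8 classes with at least 200 cells in each library, the highest level was 1.58 times the lowest in the THP library and 1.45 times in the vehicle library. The small stromal class of 79 THP cells and 72 vehicle cells had 42.6 CPM (34.003 to 52.6) and 87.5 CPM (77.3 to 98.7), a ratio of -1.02 with intervals apart, and with vehicle it stood apart from every other class. The marker levels of the stromal class also differed between the libraries, as given below under Ptgs2. B-lineage cells had 1 UMI in each library, at 3.64 CPM (0.092 to 20.3) and 4.66 CPM (0.12 to 26.0). Its level was lower in the THP library in 8 of 8 classes, with intervals apart in all of them, and the ratios ran from -0.94 in immature neutrophils (22.3 against 43.6 CPM) to -0.44 in osteoclast-like cells (28.7 against 39.4 CPM). Macrophages had 32.4 CPM (31.3 to 33.4) with THP and 56.2 CPM (54.5 to 58.0) with vehicle. The start of Pla2g4a lies 138741 bases from that of Ptgs2, on the opposite strand, and the ratios of these neighbours had opposite signs.

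Ptgs1 (ENSMUSG00000047250, chromosome 2, 36230426 to 36252272, plus strand) had 33.9 CPM (33.1 to 34.7) with THP and 63.9 CPM (62.8 to 65.0) with vehicle, which gives a log2 ratio of -0.89. It was lower with THP in 8 of 8 classes, and the intervals were apart in 7. Its levels were highest in immature neutrophils, at 72.4 CPM with THP and 114 CPM with vehicle, and lowest among the large classes in osteoclast-like cells, at 16.9 and 23.2 CPM. In the THP library the intervals of immature neutrophils and neutrophils overlapped, and in the vehicle library they did not. Neutrophil-gated cells below the progenitor cut had 65.2 CPM (59.2 to 71.8) with THP and 104 CPM (96.2 to 112) with vehicle, and these intervals overlapped those of immature neutrophils in both libraries.

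The ratio of Ptgs1 passed 2-fold in 2 classes, MHC class II high cells and macrophages. MHC class II high cells had 31.0 CPM (27.9 to 34.4) with THP and 68.0 CPM (64.03 to 72.1) with vehicle, a log2 ratio of -1.11, in a class where 4.66% of genes were lower by 2-fold. Macrophages had 24.3 CPM (23.4 to 25.2) and 51.3 CPM (49.7 to 53.0), a ratio of -1.05, and 2.38% of genes were lower by 2-fold there. With TMM factors no class ratio of Ptgs1 was below -0.88. In myeloid progenitors Ptgs1 differed least, at 46.3 and 53.6 CPM. With the classes weighted to the same mix in both libraries the ratio over all cells was -0.76.

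Ptgs2 (ENSMUSG00000032487, chromosome 1, 150100031 to 150108227, plus strand), the inducible cyclooxygenase, was low in both libraries, at 6.47 CPM (6.14 to 6.81) with THP and 2.58 CPM (2.37 to 2.81) with vehicle. That is a log2 ratio of 1.06, and 2.51-fold between the CPM values. It was higher with THP in 8 of 8 classes, with intervals apart in 6 and overlapping in monocytes and myeloid progenitors. Neutrophils had the highest level of the large classes, 13.3 CPM (11.4 to 15.4) with THP and 5.07 CPM (4.02 to 6.31) with vehicle. Their ratio of 1.23 was the only one of Ptgs2 within a class that passed the size rule, and 1.62% of genes in that class were higher by 2-fold. In the cells of this gate below the progenitor cut Ptgs2 stood at 25.8 CPM (22.1 to 30.05) and 11.2 CPM (8.81 to 14.1), a ratio of 1.13.

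The widest ratio of Ptgs2 was that of macrophages, 6.11 CPM (5.66 to 6.58) from 704 UMIs with THP and 0.71 CPM (0.53 to 0.93) from 52 UMIs with vehicle, a log2 ratio of 2.06 at levels below the 10 CPM minimum. A Ptgs2 UMI was found in 7.56% of THP macrophages and 1.58% of vehicle macrophages. With every cell thinned to 5000 UMIs the shares were 2.17% (1.76 to 2.65) of 4370 cells and 0.48% (0.26 to 0.82) of 2701 cells. In neutrophils the share before thinning was 7.43% (6.21 to 8.80) with THP and 3.60% (2.78 to 4.58) with vehicle. Thinned neutrophils gave 1.37% (0.71 to 2.38) and 0.74% (0.30 to 1.53), and these intervals overlapped. Thinning kept only 876 of 1656 THP neutrophils and 942 of 1777 vehicle ones, so shallower cells of the gate are left out. The B-lineage gate, a class not known for Ptgs2, had 0 UMIs in both libraries, but its cells were shallow (medians of 1931.5 and 2996.5 UMIs, against 21226 and 23048.5 in macrophages) and 3 UMIs there would already make 10.9 and 14.0 CPM.

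Vehicle Ptgs2 came to a large part from a small class. The stromal gate, set on collagen genes, Sparc, Cxcl12 and Dcn, held 72 vehicle cells and 79 THP cells, too few for the size rule. Its Ptgs2 level was 65.2 CPM (56.4 to 74.9) with vehicle and 55.6 CPM (45.7 to 66.9) with THP, with overlapping intervals. These cells held 198 of the 536 Ptgs2 UMIs of the vehicle library (36.9%) and 111 of the 1455 of the THP library (7.63%). Without them Ptgs2 stood at 6.03 CPM (5.71 to 6.36) with THP and 1.65 CPM (1.48 to 1.84) with vehicle, a log2 ratio of 1.41. The summed level of the 6 stromal markers over all kept cells was 52.3 CPM with THP and 220 CPM with vehicle, with 4 markers lower and 2 higher in the THP library and none at 0. Within the gate their sum was 5602 CPM with THP and 14798 CPM with vehicle, with Col1a1 at 739 and 4508 CPM and Dcn at 380 and 95.4 CPM. Stromal cells had medians of 20810 and 39385 UMIs. Stromal levels of the libraries may therefore not be those of like cells.

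Ptgs2 UMIs were also concentrated in few cells. The richest 1% of cells by Ptgs2 UMIs held 47.4% of them with THP and 66.2% with vehicle. Of the 49 THP cells with at least 5 Ptgs2 UMIs, 24 were in the macrophage gate and 6 in the stromal gate. In the vehicle library there were 15 such cells, 14 stromal and 1 MHC class II high, and none of its 2786 macrophages was among them. With equal weight per cell the log2 ratio of Ptgs2 was 0.75.

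**Figure D2:**
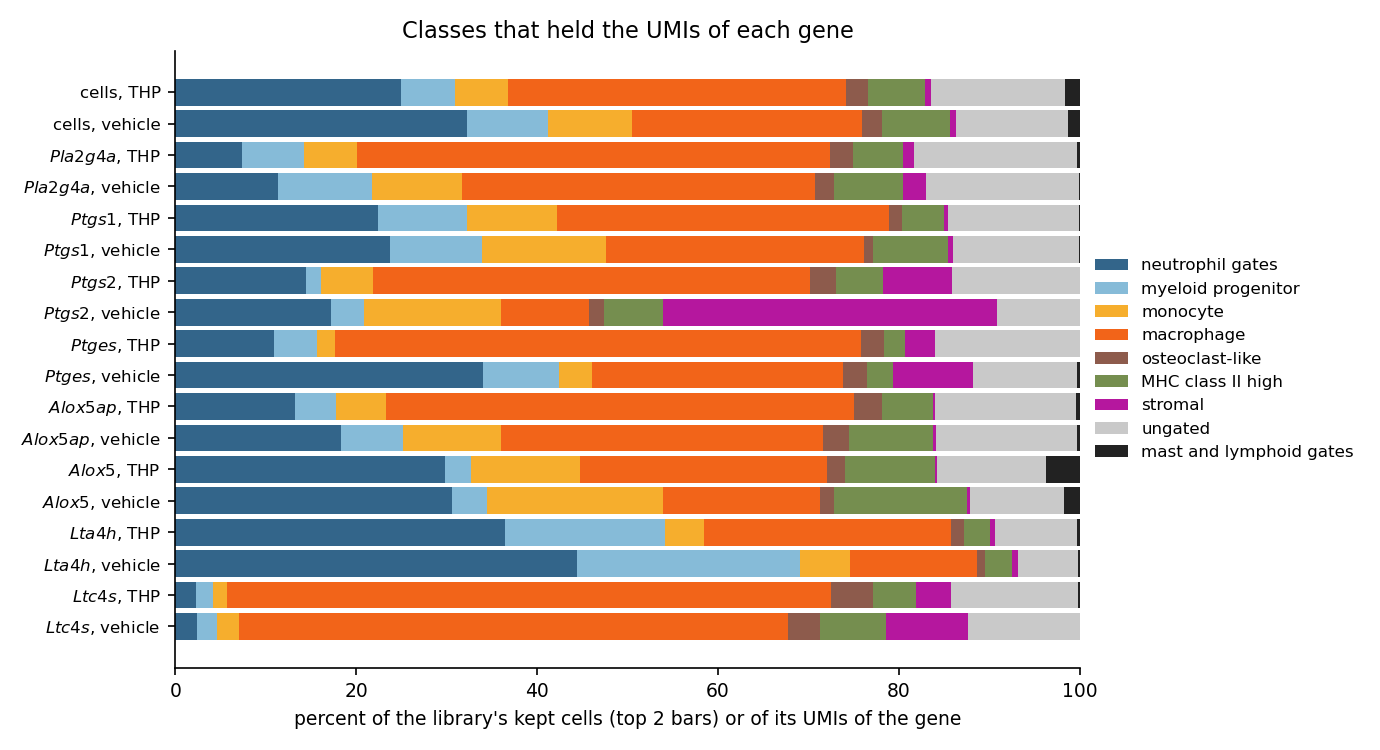
Share of each library's kept cells (top 2 bars) and of its UMIs of each gene (other bars) that lay in each class, in percent; neutrophil and immature neutrophil gates are joined, as are monocytes and the cells with both monocyte and macrophage markers, and the mast cell, B-lineage and lymphoid gates. Stromal cells held 36.9% of vehicle Ptgs2 UMIs and 7.63% of THP ones, and macrophages held 58.2% of Ptges UMIs with THP and 27.7% with vehicle.

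Ptges (ENSMUSG00000050737, chromosome 2, 30889471 to 30929863, minus strand) had 6.14 CPM (5.82 to 6.47) with THP and 1.84 CPM (1.66 to 2.03) with vehicle, which gives a log2 ratio of 1.33, the highest of the 8 genes over all kept cells. It was higher with THP in 8 of 8 classes, with intervals apart in 7. The ratio was widest in macrophages, with 6.97 CPM (6.49 to 7.46) with THP, 1.44 CPM (1.18 to 1.74) with vehicle and a ratio of 1.71 on the log2 scale. Immature neutrophils, the large class with the highest level in both libraries, had the narrowest, with 8.49 CPM (6.80 to 10.5) and 6.42 CPM (5.15 to 7.91), a ratio of 0.36 with overlapping intervals. The order of the classes by Ptges therefore differed between the libraries: macrophages stood close to immature neutrophils with THP and far below them with vehicle. Stromal cells had 23.0 CPM (16.9 to 30.7) with THP and 11.2 CPM (7.75 to 15.6) with vehicle, in a gate whose marker levels also differed between the libraries.

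Both genes were found in few cells after thinning, so cells with both are few whatever their relation. Among THP macrophages thinned to 5000 UMIs, 6 of the 95 cells with a Ptgs2 UMI also had one of Ptges, a share of 6.32% (2.35 to 13.2), against 2.62% (2.16 to 3.14) of the cells without Ptgs2. Those intervals overlap, and with vehicle 0 of 13 Ptgs2-bearing macrophages had Ptges. The share was 2 of 9 (22.2%, 2.81 to 60.01) in THP immature neutrophils, against 4.48% (3.16 to 6.15) of those without Ptgs2, and 2 of 9 in THP stromal cells, against 17.4% (9.32 to 28.4). In THP neutrophils it was 0 of 12, against 2.55% (1.60 to 3.83) of those without Ptgs2. With vehicle it was 0 of 7 in neutrophils, 0 of 3 in immature neutrophils and 1 of 11 in stromal cells. All intervals of these pairs overlap.

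**Figure D3:**
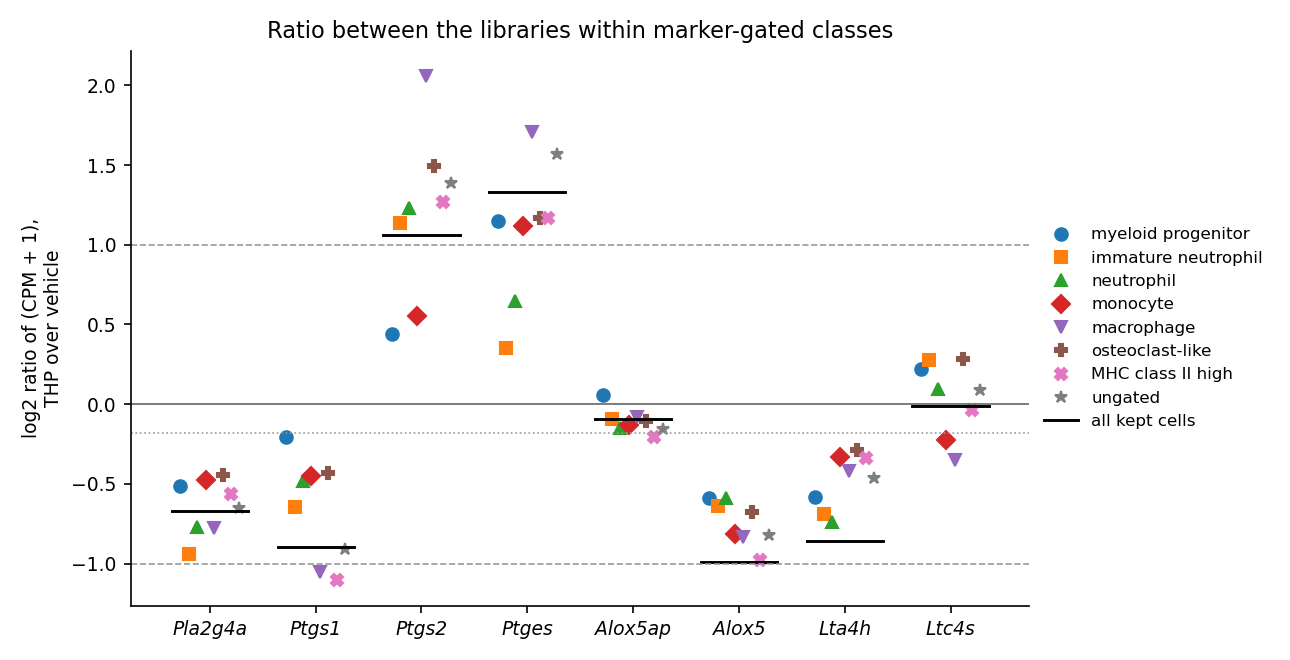
Log2 ratio of CPM + 1, THP over vehicle, of each gene within the 8 classes of at least 200 cells in each library (symbols) and over all kept cells (black bars); dashed lines mark 2-fold and the dotted line the median of all genes at 10 CPM, -0.18. Ptgs2 and Ptges lie above 0 and Pla2g4a, Ptgs1, Alox5 and Lta4h below 0 in every class shown.

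Of the 64 ratios of these 8 genes in 8 classes, 24 lay below 10 CPM in both libraries and could not pass the size rule (all of Ptges and Ltc4s, 7 of Ptgs2 and 1 of Alox5). Of the other 40, 3 passed, the one of Ptgs2 in neutrophils as higher and the 2 of Ptgs1 as lower. Over the same classes 1.16% of all gene ratios at 10 CPM passed as higher and 3.28% as lower. At 1.5-fold 1 of the 40 passed as higher and 17 as lower, where the shares of all gene ratios were 2.69% and 18.9%. The direction was the same in every large class for 6 genes. Ptgs1, Alox5, Lta4h and Pla2g4a were lower and Ptgs2 and Ptges higher in 8 of 8 classes. This held with TMM factors, with median-ratio (RLE) factors, after a correction for transcript length, and in the 5 classes made from clusters in place of gates. The share of all genes that kept the same sign in every large class was not computed, so this count cannot be read as particular to these genes. The median ratio of all genes at 10 CPM was below 0 in each of these classes, from -0.22 in MHC class II high cells to -0.15 in osteoclast-like cells. The classes of a library share its preparation and are not replicates.

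Alox5ap (ENSMUSG00000060063, chromosome 5, 149264767 to 149288153, plus strand), the lipoxygenase's helper protein, was found in 95.3% of THP cells and 96.5% of vehicle cells. Its level was 592 CPM (589 to 596) with THP and 631 CPM (627 to 634) with vehicle, a log2 ratio of -0.09. That lies above the median of all genes, and the sign depended on scaling: Alox5ap was lower in 7 of 8 classes on the CPM scale and higher in 8 of 8 with TMM or RLE factors. Mast cells and basophils, a class of 48 THP cells and 29 vehicle cells, had the highest levels, 1286 CPM (1166 to 1414) and 1228 CPM (1089 to 1380). The gate does not tell mast cells from basophils. Its highest markers were Prss34 (18310 and 8965 CPM) and Mcpt8 (12150 and 7527 CPM). Of the large classes, immature neutrophils were highest at 831 and 887 CPM, but neutrophil-gated cells below the progenitor cut were at 854 and 1098 CPM. Of the large classes myeloid progenitors were lowest at 375 and 360 CPM. B-lineage cells, at 127 and 93.3 CPM, had a UMI in 17.4% and 12.1% of cells, at the shallow depth given above. Free RNA in the droplets was not corrected for.

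Alox5 (ENSMUSG00000025701, chromosome 6, 116410077 to 116461178, minus strand), the 5-lipoxygenase itself, had 11.1 CPM (10.7 to 11.6) with THP and 23.0 CPM (22.4 to 23.7) with vehicle. Its log2 ratio of -0.99 was the lowest of the 8 genes and just short of 2-fold on the CPM + 1 scale, while the CPM ratio itself was 0.482. The call rests on the setting. With a pseudocount of 0.1 CPM the ratio was -1.05 and passed, where 3.74% of all genes passed as lower, and without the 5% of cells with most UMIs it was -1.002 and passed. Alox5 was lower with THP in 8 of 8 classes, with intervals apart in 7, and the class ratios ran from -0.97 to -0.59. MHC class II high cells had 21.7 CPM (19.1 to 24.5) and 43.6 CPM (40.4 to 46.9), and macrophages 5.92 CPM (5.48 to 6.38) and 11.3 CPM (10.6 to 12.1).

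The level of Alox5 differed widely between lineages. Mast cells and basophils stood at 275 CPM (221 to 337) with THP and 322 CPM (253 to 405) with vehicle, and their intervals overlapped. Immature neutrophils followed with 41.5 and 65.2 CPM. Monocytes (24.6 and 44.1), neutrophils (23.7 and 36.1) and MHC class II high cells (21.7 and 43.6) came next. With THP the intervals of neighbours among these 3 overlapped, and with vehicle neutrophils lay apart below the other two. Neutrophil-gated cells below the progenitor cut had 33.9 CPM (29.5 to 38.7) and 57.0 CPM (51.4 to 63.05), above the other two in both libraries. Macrophages and myeloid progenitors were lowest of the large classes, with 4.60 and 7.43 CPM in progenitors. Within a library, the highest large class had 9.01 times the level of the lowest with THP and 8.78 times with vehicle, where the same figures for Alox5ap were 2.21 and 2.46.

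Lta4h (ENSMUSG00000015889, chromosome 10, 93453411 to 93484875, plus strand), the hydrolase that makes leukotriene B4, had 42.8 CPM (42.0 to 43.7) with THP and 78.5 CPM (77.3 to 79.7) with vehicle, which gives a log2 ratio of -0.86. Its highest levels were in the granulocyte series in both libraries. Immature neutrophils had 178 CPM (170 to 187) with THP and 288 CPM (279 to 297) with vehicle. Neutrophils followed with 125 and 210 CPM and myeloid progenitors with 106 and 159 CPM, each apart from the next by its interval. This order rests on the mixed neutrophil gate. Its cells at or above the progenitor cut had 187 CPM (177 to 198) and 299 CPM (288 to 310), and those below it 57.8 CPM (52.1 to 63.99) and 85.3 CPM (78.4 to 92.7), lower than myeloid progenitors in both libraries. All other large classes lay between 21.2 and 42.7 CPM. Macrophages had 22.9 CPM (22.0 to 23.8) and 31.0 CPM (29.7 to 32.2).

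The ratio of Lta4h over all cells was wider than in any single large class, where it ran from -0.74 in neutrophils (-0.55 in those below the progenitor cut) to -0.29 in osteoclast-like cells. Both neutrophil gates together held 36.5% of the Lta4h UMIs of the THP library and 44.5% of those of the vehicle library. Of the 9 neutrophil markers, 8 were lower in the THP library over all kept cells and none was at 0, and their summed level was 21602 CPM against 26738 CPM. All 6 myeloid progenitor markers were lower as well, at 2786 against 4604 CPM in sum. With the same mix of classes in both libraries the ratio was -0.56, and that of Alox5, which also lay outside its range over the classes, was -0.78.

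Ltc4s (ENSMUSG00000020377, chromosome 11, 50236461 to 50238616, minus strand), the leukotriene C4 synthase, had the ratio nearest to 0, -0.01, with 4.63 CPM (4.35 to 4.92) with THP and 4.66 CPM (4.37 to 4.96) with vehicle. It was low in neutrophils, at 0.82 CPM with THP and 0.70 CPM with vehicle, and in monocytes, at 0.56 and 0.83 CPM. Macrophages had 6.03 CPM (5.59 to 6.49) with THP and 7.98 CPM (7.35 to 8.65) with vehicle, the one large class whose intervals were apart, and osteoclast-like cells had 7.53 CPM (5.57 to 9.96) and 6.01 CPM (4.16 to 8.40). Macrophages held 66.8% of the Ltc4s UMIs of the THP library and 60.7% of those of the vehicle library. Stromal cells were highest, at 20.0 CPM (14.3 to 27.3) and 29.0 CPM (23.2 to 35.7), and mast cells and basophils had 1 UMI with THP and 0 with vehicle. That small class held few UMIs in all, and 3 UMIs there would already make 9.05 and 13.1 CPM. Its intervals reached 16.8 and 16.1 CPM, and with THP overlapped that of stromal cells. The sign of the ratio was mixed, higher in 5 of 8 classes and lower in 3, and lower in 8 of 8 after the correction for transcript length. An antisense gene, Gm26542, overlaps Ltc4s and had 48 UMIs with THP and 90 with vehicle, beside 1040 and 968 of Ltc4s. The sources used here do not say whether counting used the strand. Gm19719, antisense to Alox5ap, had 9 and 46 UMIs.

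**Figure D4:**
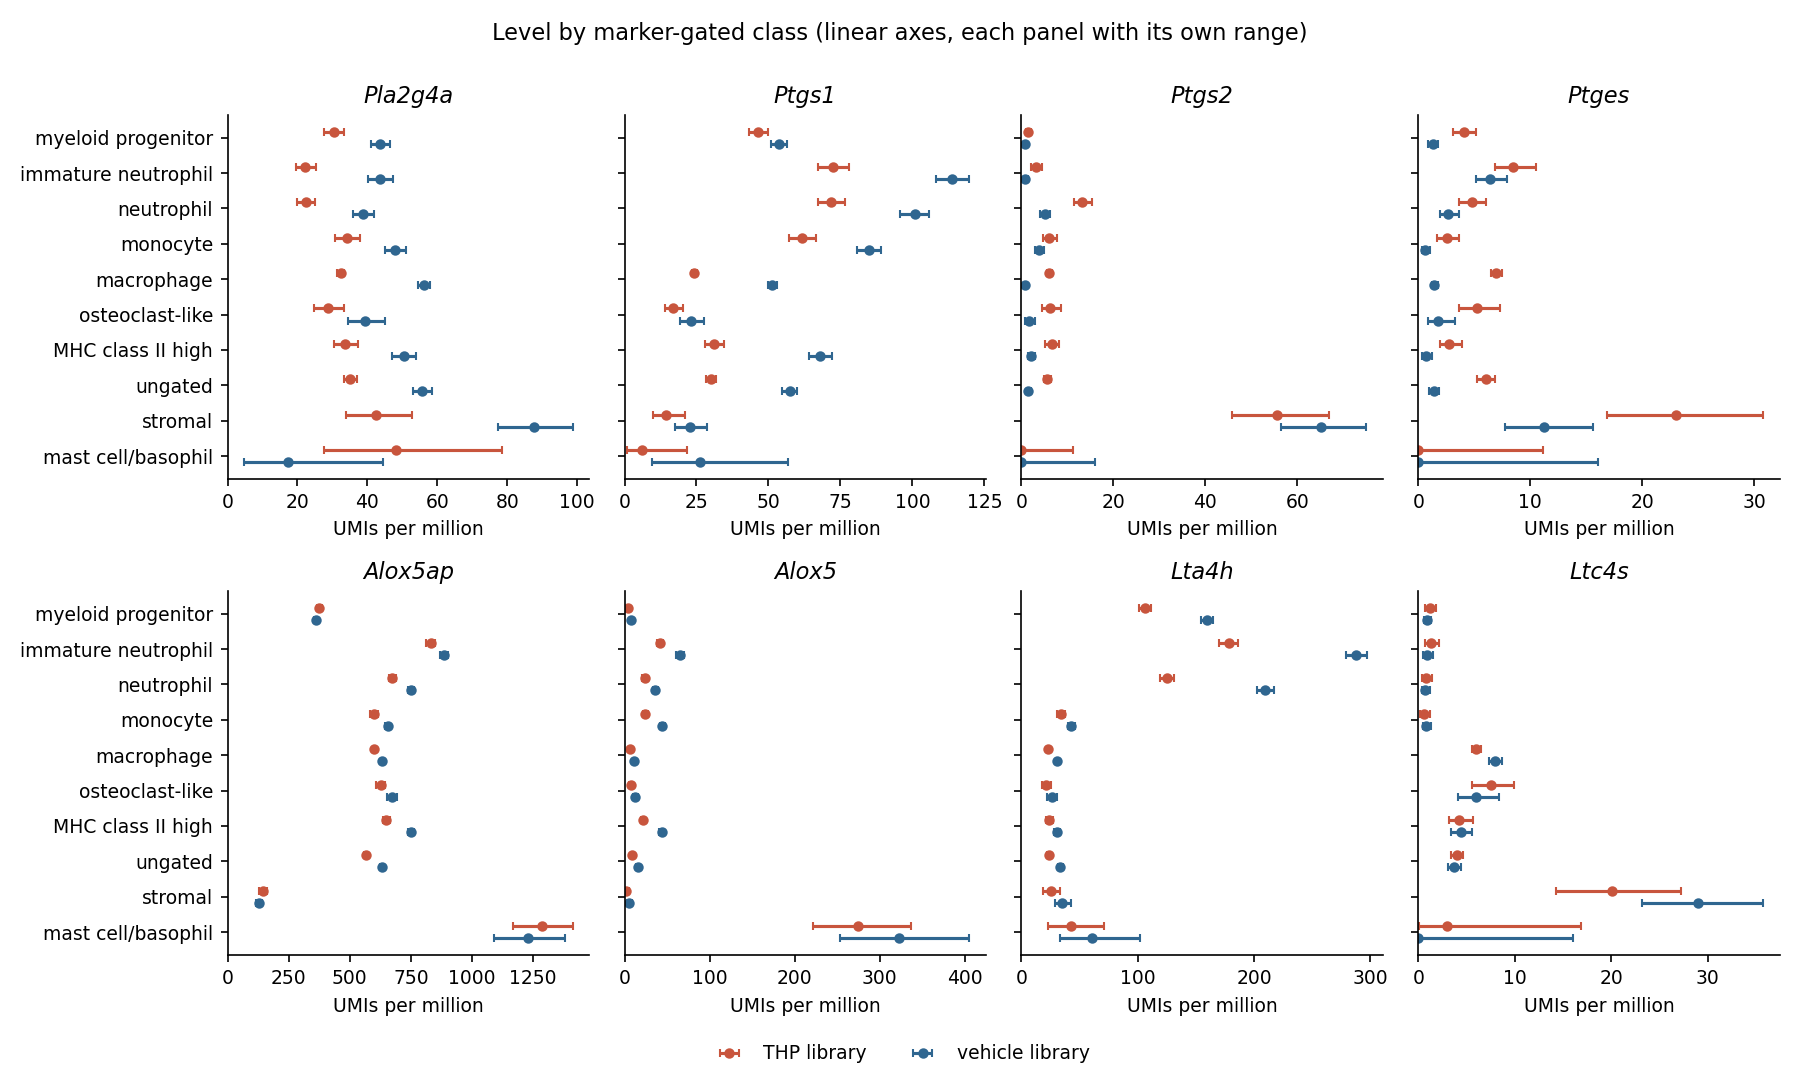
Level of each gene in 10 marker-gated classes, in CPM on linear axes that differ between panels, with exact Poisson 95% intervals, with THP (red) and vehicle (blue). Lta4h is highest in immature neutrophils (178 and 288 CPM), Alox5 and Alox5ap in mast cells and basophils, and Ptgs2, Ptges and Ltc4s in stromal cells. For Ptges with vehicle the stromal interval overlaps those of immature neutrophils and of mast cells and basophils. For Ltc4s with THP it overlaps that of mast cells and basophils.

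Depth differed between classes, so shares of cells were read after thinning to 5000 UMIs, which left 10165 THP cells and 9012 vehicle cells. Ptgs1 was then found in 16.3% of THP cells and 26.2% of vehicle cells, Lta4h in 19.7% and 29.9%, Alox5 in 6.05% and 11.3%, and Pla2g4a in 13.7% and 22.2%. Ptgs2 was found in 2.11% and 0.88%, and Ptges in 2.71% and 1.01%. Ltc4s, at 1.70% (1.46 to 1.97) and 2.04% (1.76 to 2.36), had overlapping intervals. Before thinning the shares of Ptgs1 were 35.2% and 51.4%, and those of Ptgs2 6.33% and 2.65%. For each of the 8 genes the library with the larger thinned share was also the one with the higher CPM.

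The rest of the pathway was read from a list of 59 other genes, of which 27 reached 10 CPM. The size rule was passed by 1 as higher and 1 as lower, where the same rule gave 0.911% and 2.97% of all genes. Their median log2 ratio was -0.26, beside -0.18 for all genes at that level and -0.86 for the 5 of the 8 synthesis genes that reached it, with 8 of the 27 above 0 and 19 below. Of all genes at 10 CPM, 67.6% lay below 0, so such a split is near that of all genes. Fpr2, a receptor for lipoxin A4 and formyl peptides, was the one past the rule as higher, with 102 CPM (101 to 103) with THP and 45.9 CPM (45.0 to 46.8) with vehicle, a ratio of 1.14, and it was higher in 8 of 8 classes. Hpgd, the dehydrogenase that inactivates prostaglandin E2, was the one past it as lower, with 14.5 CPM (14.0 to 15.02) and 37.8 CPM (37.0 to 38.7), a ratio of -1.32. In macrophages Hpgd had 23.2 and 78.1 CPM, and over the large classes it was lower in 6 and higher in 2 (immature neutrophils at 0.69 and osteoclast-like cells at 0.02).

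By role, all 5 genes of the phospholipase list and all 5 genes of prostaglandin breakdown and transport at 10 CPM had ratios below 0, beside the 67.6% of all genes. The phospholipase list includes Plaa, the phospholipase A2 activating protein, which is not itself a phospholipase. The medians were -0.26 and -0.63, where that of all genes was -0.18. Of 7 other prostanoid synthases, 4 lay above 0 and 3 below: Fam213b, a prostamide and prostaglandin F synthase, was at 0.50, while Hpgds, which makes prostaglandin D2, was at -0.49 with 64.7 CPM in THP macrophages and 116 CPM in vehicle macrophages. Tbxas1, the thromboxane synthase, was at -0.47 and lower in 8 of 8 classes. Ptges2 and Ptges3, the other prostaglandin E synthases, were at 0.11 and -0.13. Ptger4, one of the prostaglandin E2 receptors and the only prostanoid receptor of 9 to reach 10 CPM, had 21.003 CPM (20.4 to 21.6) with THP and 12.9 CPM (12.5 to 13.4) with vehicle, a ratio of 0.66, higher in 8 of 8 classes. Ltb4r1, the leukotriene B4 receptor, had 34.6 and 61.4 CPM, a ratio of -0.81 and lower in 8 of 8 classes. Its level was 294 CPM in THP and 347 CPM in vehicle immature neutrophils and 5.72 and 8.66 CPM in macrophages, so it was high in the class where Lta4h was high. None of the 5 other lipoxygenase genes reached 10 CPM.

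**Figure D5:**
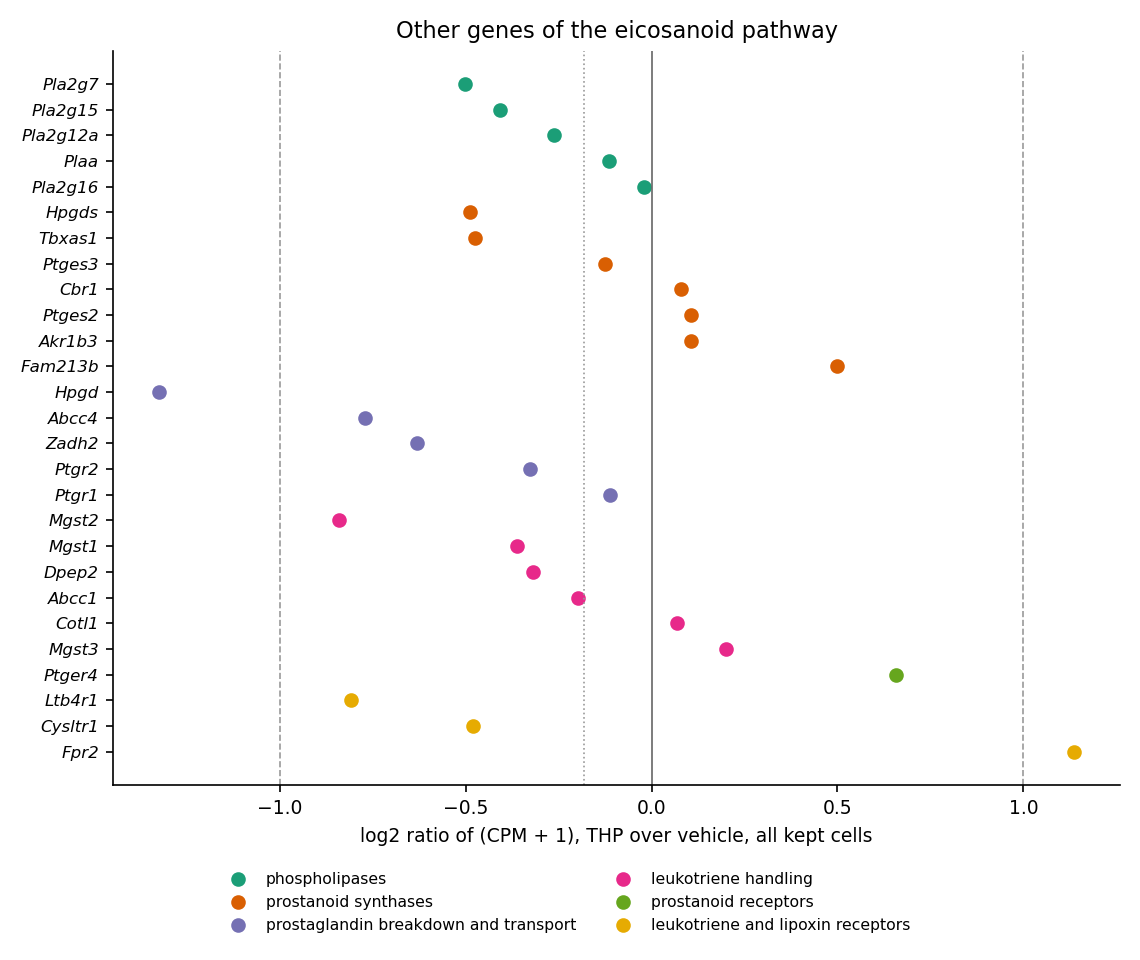
Log2 ratio of CPM + 1, THP over vehicle, over all kept cells, of the 27 other pathway genes with at least 10 CPM, coloured by role and ordered within it; dashed lines mark 2-fold and the dotted line the median of all genes, -0.18. Fpr2 at 1.14 and Hpgd at -1.32 lie beyond 2-fold.

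The genes whose level followed each of the 8 most closely over 24 profiles (classes of at least 50 cells in each library) were found among 11223 genes by Pearson's r of log2(CPM + 1). The profiles share libraries and depth, so r is a description. Mast cells and basophils, the class with the highest Alox5 and Alox5ap, had too few cells for a profile. For Ptgs1 they were Depdc1b (r = 0.98), Esco2 and Mybl2, and for Pla2g4a Prkaa1 (0.94), Tpx2 and Ralb. Ptgs2 was followed by Fosl1 (0.89), Nupr1 and Myl12a, and Ptges by Msantd3 (0.82), Bmpr1a and Csrp2. On the leukotriene side Alox5 was followed by Vsir (0.88), Rybp and Cd33, Alox5ap by G6pdx (0.94) and Tyrobp, Lta4h by Scnn1a (0.96), Glt1d1 and Prom1, and Ltc4s by Maged1 (0.97), 1110046J04Rik and Rusc2. No gene of the list of 59 was among them.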

How the data were processed

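Single-cell RNA was measured in 2 libraries, 1 per group. The authors deposited matrices of whole-number counts, UMIs by gene and barcode, made with software version 3.1.0 per the file headers. Cell Ranger, STAR, bcl2fastq and the build mm10 come from the submitters' processing notes. Versions of the aligner and annotation were not given in the sources used here. Coordinates are 1-based, from GENCODE M21 (GRCm38), and promoter windows from RefSeq.

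Barcodes with at least 500 genes, at least 1000 UMIs and at most 10% mitochondrial UMIs were kept. No doublet caller was run, and leaving out the 5% of cells with most UMIs was the alternative. Gates were cuts on marker UMIs per 10000 UMIs, applied in the order mast cell or basophil (64), stromal (16), B lineage (16), T, NK or innate lymphoid (16), immature neutrophil (128), neutrophil (512), myeloid progenitor (64), MHC class II high (64), osteoclast-like (16), then monocyte (16) and macrophage (8), with the rest ungated. The cuts were placed after the score distributions were seen. Intervals are exact Poisson for CPM and exact binomial (Clopper-Pearson) for shares. The log2 ratio used a pseudocount of 1 CPM, which understates ratios of low genes. Clustering used scanpy 1.11.5 (Leiden, igraph 0.11.9) without the 8 genes, TMM and RLE factors came from edgeR 4.0.16, and the length correction was a lowess fit on the longest transcript, known for 99.6% of genes.

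The genes named were the 8, the other pathway genes at 10 CPM, and the 3 genes most like each of the 8 by Pearson's r, of which 1 is not reported here. The members and lists were chosen with earlier results of these data known.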

Additional observations from a re-analysis of the deposited data

How the results depend on the processing

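With 1 library per group, no difference between the libraries has a replicate check. No paired analysis was possible because each group had 1 library and no test was run. Of the 5 genes at 10 CPM, 0 passed the size rule, but 4 did at 1.5-fold (Ptgs1, Alox5, Lta4h and Pla2g4a) and 1 without the top 5% of cells by UMIs or with a pseudocount of 0.1 CPM (Alox5); 2 of the 8 passed at a minimum of 1 CPM or with no minimum (Ptgs2 and Ptges). Of the other pathway genes 2 passed, against 7 at 1.5-fold (2 higher and 5 lower, where 2.33% and 17.3% of all genes were) and 1 with equal weight per cell. Within classes 3 ratios passed, 18 of 40 at 1.5-fold and 1 with TMM factors within the class. The Alox5ap ratio of -0.09 became 0.19 with TMM factors and 0.19 with RLE factors. Over 12 alternatives the ratio of Ptgs2 ran from 0.39 (pseudocount of 10 CPM) to 1.41 (without stromal cells), that of Ptges from 0.45 (pseudocount of 10 CPM) to 1.69 (pseudocount of 0.1 CPM), that of Ptgs1 from -0.93 to -0.62, that of Alox5 from -1.05 to -0.65, that of Lta4h from -0.88 to -0.56 and that of Pla2g4a from -0.70 to -0.39. Without the barcodes found in both libraries Ptgs2 was at 1.07. With only neutrophil-gated cells below the progenitor cut, the highest large class was the same in 14 of 16 cases of gene and library, and Alox5ap moved to neutrophils in both libraries. That alternative, the size rule with other pseudocounts, and leaving out stromal cells or shared barcodes were chosen after seeing the data. Levels of Ptgs2, Ptges and Ltc4s rest on few UMIs, from 382 to 1455 per library, and in the B-lineage and lymphoid gates each had 0 or 1 UMI.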

Other observations

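The 1070 THP and 606 vehicle barcodes left out by the cell filter, which enter the results above only where all deposited barcodes were used, also held UMIs of all 8 genes. Ptgs2 was at 19.5 CPM (14.2 to 26.1) in those of the THP library and 11.2 CPM (6.396 to 18.2) in those of the vehicle library, from 45 and 16 UMIs, and both intervals lay above the level in kept cells of the same library. Ptgs1 was at 39.9 CPM (32.2 to 49.0) and 84.6 CPM (70.2 to 101).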
